A study of Caenorhabditis elegans with 12 samples.

Results

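The central parts of chromosomes II, III, IV and V hold few of the H3K9me2 peaks of *C. elegans*, and those few are described here. A peak was counted as central when its midpoint lay, on the WS220/ce10 build, from 4880000 to below 12020000 on chromosome II, from 3720000 to below 10340000 on III, from 3900000 to below 12970000 on IV, or from 5900000 to below 16550000 on V. By this rule 1064 of the 10457 peaks of the *wdr-5* experiment and 877 of the 5883 peaks of the *jhdm-1* experiment were central. The rule used positions only, and no peak was left out for its length. A peak is given in the lists by its position alone, so no level of H3K9me2 was measured for any peak here and the depth of the libraries is unknown.

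H3K9me2 was profiled by ChIP-seq, a method that sequences DNA enriched with an antibody (ab1220, against H3K9me2), in whole animals of mixed stages. The *wdr-5* experiment comprised 6 groups, N2 wild type and *wdr-5 (ok1417)* mutants, each as an early-, a mid- and a late-gen population. The *jhdm-1* experiment comprised 4 groups, N2 and *jhdm-1 (ok2364)* mutants, each early- and mid-gen. Either experiment had 1 input sample of mixed strain. Each generation class counts from a reset of the strain, by a thaw, by starving or by passage as heterozygotes. Both mutations are listed on chromosome III. For N2, 1 early-gen and 1 mid-gen library were used in both experiments, so the lists are not independent. Each list is the union of the peaks found in at least 2 replicates of any group of its experiment. A peak therefore does not say whether wild type or mutant animals carried it, and no group could be compared with another. The paper's methods name more replicates for *wdr-5* than for *jhdm-1* mutants, and reads of 2 lengths from 2 sequencers in each experiment. Whether differences between the lists come from the numbers of groups and replicates or from the sequencing was not tested.

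H3K9me2 is a mark of repressed chromatin. In *C. elegans* the methyltransferase MET-2 adds much of it, and on autosomes it is known mainly from the arms, which are rich in repeats and recombine often. The centres recombine rarely and are dense in genes that are expressed in many tissues and in the germline. WDR-5 is a subunit of the COMPASS complex, which methylates H3K4 at transcribed genes, and JHDM-1 is a predicted H3K9 demethylase. H3K9me2 in the centres thus lies in the part of each autosome that is otherwise mostly active. No genome or gene annotation of WS220/ce10 was used here, so peaks are named by position and are not assigned to genes, exons or repeats.

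The 4 centres measured 33.5 Mb, or 33.4% of the 6 chromosomes, each measured from base 1 up to where its rightmost peak ends. They held 10.2% of the *wdr-5* list (95% Wilson interval from 9.61% to 10.8%). For the *jhdm-1* list the share was 14.9% (from 14.0% to 15.8%). These intervals and those below cover counting error only. Peaks are not replicates of an animal or a population, so differences between lists, or between centres and arms, are descriptions and were not tested.

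On all 4 chromosomes the centre was poorer in peaks than the arms, and the gap was wider in the *wdr-5* list. The arms are here the remainder of the same chromosome. Over the 4 chromosomes the *wdr-5* list had 31.8 peaks per Mb in the centres and 194.0 on the arms, a ratio of arms to centre of 6.11. The *jhdm-1* list had 26.2 peaks per Mb in the centres and 97.1 on the arms, a ratio of 3.71. With all peaks counted, the numbers of the 2 lists were thus closer to each other in the centres than on the arms. For each *jhdm-1* peak there were 1.21 *wdr-5* peaks in the centres and 2.00 on the arms. This turned with peaks of at least 500 bp only, of which the centres held 381 in the *wdr-5* list and 657 in the *jhdm-1* list, and the arms 3396 and 2403. With peaks within 1 kb merged the lists differed less. The ratio of arms to centre was then 4.38 in the *wdr-5* list and 3.60 in the *jhdm-1* list. The centres held 807 *wdr-5* and 830 *jhdm-1* peaks after merging, and the arms 3586 and 3032.

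The centre of II held the fewest peaks in both lists, with 142 *wdr-5* peaks, or 19.9 per Mb, and 146 *jhdm-1* peaks, or 20.4 per Mb. Per Mb the centre of V had fewer *jhdm-1* peaks, with 19.5. The arms of II were 8.45 times as dense as its centre in the *wdr-5* list and 5.04 times in the *jhdm-1* list. These were the widest ratios of the 4 chromosomes in both lists. The centre of III held 221 *wdr-5* peaks and 222 *jhdm-1* peaks, with densities of 33.4 and 33.5 per Mb. On its arms the *wdr-5* list had 247.1 peaks per Mb and the *jhdm-1* list 125.6.

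The centre of IV was the richest in the *wdr-5* list. It held 350 *wdr-5* peaks, or 38.6 per Mb, and 301 *jhdm-1* peaks, or 33.2 per Mb. In the *wdr-5* list 20.1% of the peaks of chromosome IV were central (95% interval from 18.3% to 22.1%), against 9.41% on II (from 8.04% to 11.0%). In the *jhdm-1* list the share was 29.3% on IV (from 26.6% to 32.2%) and 14.8% on II (from 12.7% to 17.2%). Chromosome IV thus had the weakest contrast between centre and arms in both lists, with ratios of 4.28 and 2.60. The centre of V held 351 *wdr-5* peaks, or 33.0 per Mb, and 208 *jhdm-1* peaks, or 19.5 per Mb. This was 1.69 *wdr-5* peaks for each *jhdm-1* peak, against 0.973 to 1.16 in the other centres.

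**Figure D1:**
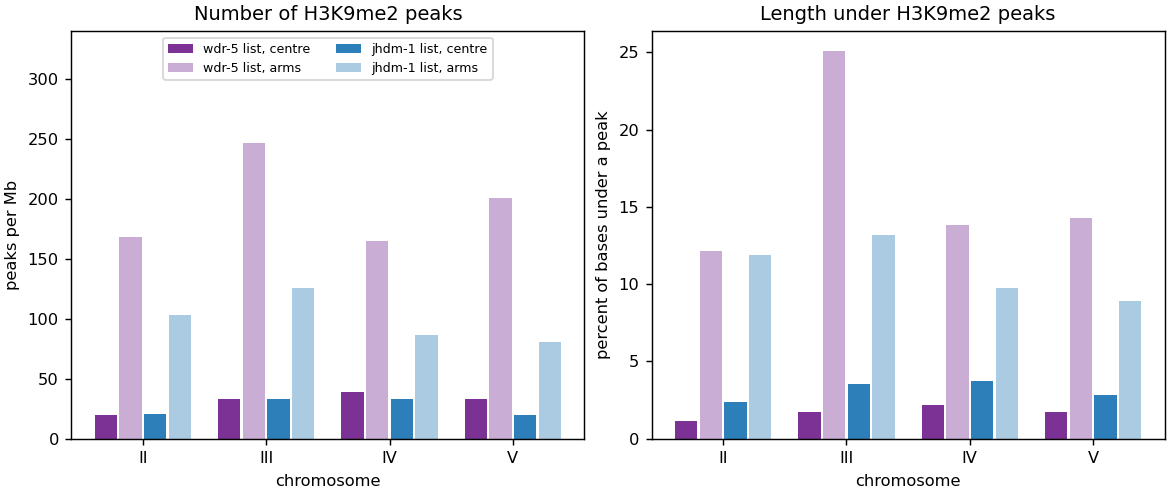
Bars give peaks per Mb (left) and the percent of bases under a peak (right) for the centres (full colour) and arms (pale) of chromosomes II to V in the *wdr-5* and *jhdm-1* lists. Every centre lies below its arms. In length the *jhdm-1* bar exceeds the *wdr-5* bar in each centre, from 1.63 times on V to 2.12 times on II, and not on the arms.

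By length the order of the lists turned over between centres and arms. In the centres the *jhdm-1* peaks covered 1040 kb, or 3.11% of the bases, and the *wdr-5* peaks covered 572.1 kb, or 1.71%. The *jhdm-1* list thus covered 1.82 times as much, with fewer peaks. On the arms of the same chromosomes it covered 0.673 times as much as the *wdr-5* list, 10.7% against 15.9% of the bases. The central ratio was above 1 on each chromosome, with 2.12 on II, 2.07 on III, 1.72 on IV and 1.63 on V. On the arms it was below 1 on each, from 0.526 on III to 0.975 on II. Chromosome III had the largest swing. Its *wdr-5* peaks covered 25.1% of the arms and 1.70% of the centre, and its *jhdm-1* peaks 13.2% of the arms and 3.52% of the centre.

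In the centres the larger cover of the *jhdm-1* list went with longer peaks. On the arms its peaks were also longer at the median, but its cover was smaller. The numbers differed more there, with 2.00 *wdr-5* peaks for each *jhdm-1* peak against 1.21 in the centres. Central *wdr-5* peaks were short, with a median of 375 bp (95% interval of the median from 359 to 398 bp), against 517 bp on the arms (from 504 to 532 bp). Central *jhdm-1* peaks had a median of 891 bp (from 824 to 938 bp), against 828 bp on the arms (from 809 to 853 bp). The former intervals lie apart and the latter overlap. The median *jhdm-1* peak was therefore 2.38 times as long as the median *wdr-5* peak in the centres and 1.60 times on the arms. With peaks of at least 500 bp only, the central medians were 786 bp (*wdr-5*) and 1097 bp (*jhdm-1*). Those of the arms were then 916.5 and 1044 bp. With peaks within 1 kb merged the central medians were 445 bp (*wdr-5*) and 907 bp (*jhdm-1*). On the arms the merged medians lay closer together, at 842 and 881.5 bp.

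Central *wdr-5* peaks were the shorter on every chromosome. The median was 402 bp in the centre and 496 bp on the arms of II, 331 and 607 bp on III, 404.5 and 558 bp on IV, and 375 and 451 bp on V. Central *jhdm-1* peaks did not follow one direction. Their median was 952 bp in the centre and 826 bp on the arms of II, 763 and 813.5 bp on III, 852 and 886.5 bp on IV, and 977.5 and 817 bp on V. On V the intervals of the *jhdm-1* medians overlapped, with 853 to 1073 bp in the centre and 765 to 867 bp on the arms.

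**Figure D2:**
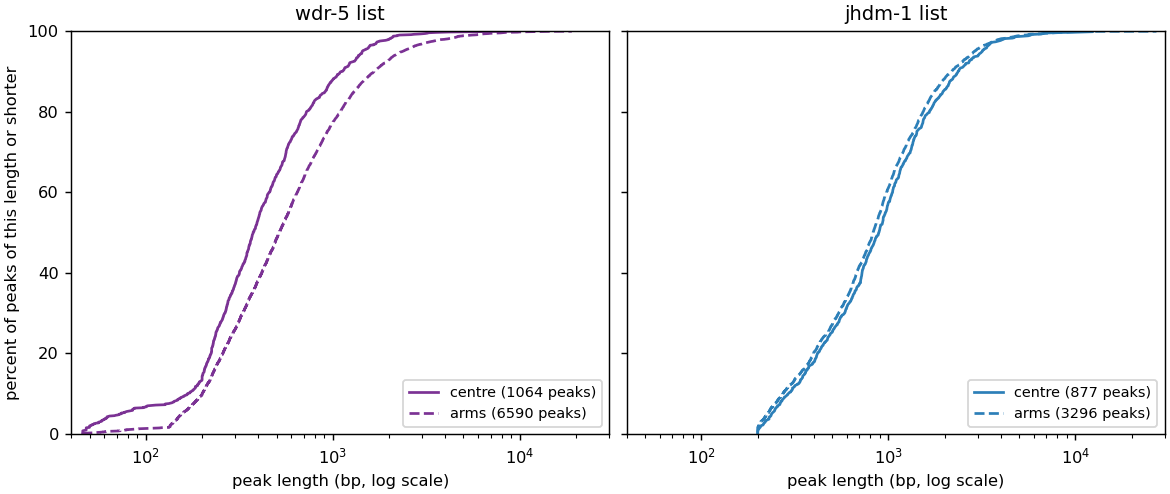
Each curve gives the percent of peaks (vertical axis) that are no longer than the length on the horizontal axis (bp, log scale), for the 4 centres together (solid) and the arms of the same chromosomes (dashed). In the *wdr-5* list the central curve lies to the left of the arm curve, with medians of 375 and 517 bp. In the *jhdm-1* list the curves nearly coincide, with medians of 891 and 828 bp.

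Long peaks were rare in the centres of the *wdr-5* list. Only 21 of its 1064 central peaks, or 1.97%, reached 2 kb, against 7.12% of its arm peaks. Of the central *jhdm-1* peaks 128, or 14.6%, reached 2 kb, against 11.8% on the arms. Peaks of 5 kb or more numbered 2 in the centres of the *wdr-5* list and 12 in those of the *jhdm-1* list, while the arms held 74 and 37. The broad central peaks lay on III, IV and V, and the centre of II had none in either list.

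At the other end, no *jhdm-1* peak of the centres or arms was shorter than 200 bp, while 9.64% of the *wdr-5* arm peaks were. Whether the lists were made differently at this length was not tested. In the centres 141 *wdr-5* peaks, or 13.3%, were shorter than 200 bp. Of these short peaks 70 were under 100 bp. They were most frequent on III, where 52 of the 221 central peaks, or 23.5%, were shorter than 200 bp, against 8.29% on IV and 9.86% on II. Most of the short peaks of III belonged to 1 stretch.

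That stretch ran from 7406103 to 7438134 on chromosome III and held 32 *wdr-5* peaks within 32.0 kb, which is 14.5% of the central *wdr-5* peaks of III. It was the largest group of peaks in any of the centres in either list, when peaks at gaps of at most 10 kb are put in 1 group. Its peaks were between 46 and 227 bp long with a median of 70.5 bp, 30 of them were under 200 bp and 21 under 100 bp, and together they covered 2.89 kb. The *jhdm-1* list had no peak in it. The nearest *jhdm-1* peaks lay 74.8 kb to its left and 28.6 kb to its right. Without this stretch the remaining 189 central *wdr-5* peaks of III had a median of 367 bp (from 335 to 407 bp), and 11.6% of them were shorter than 200 bp. Over the 4 centres the median without it was 387.5 bp, still below that of the arms. The share of central *wdr-5* peaks under 200 bp was then 10.8%, or 111 of 1032, close to the 9.64% of the arms.

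The stretch of III is also the tallest bar in the profile of *wdr-5* peaks along that centre. When each centre was divided into 20 bins of equal length, the bin from 55% to 60% of the centre of III held 45 *wdr-5* peaks, or 20.4% of those in the centre, and 10 *jhdm-1* peaks. The outermost bins of III held 20 and 21 *wdr-5* peaks, and 23 and 24 *jhdm-1* peaks.

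**Figure D3:**
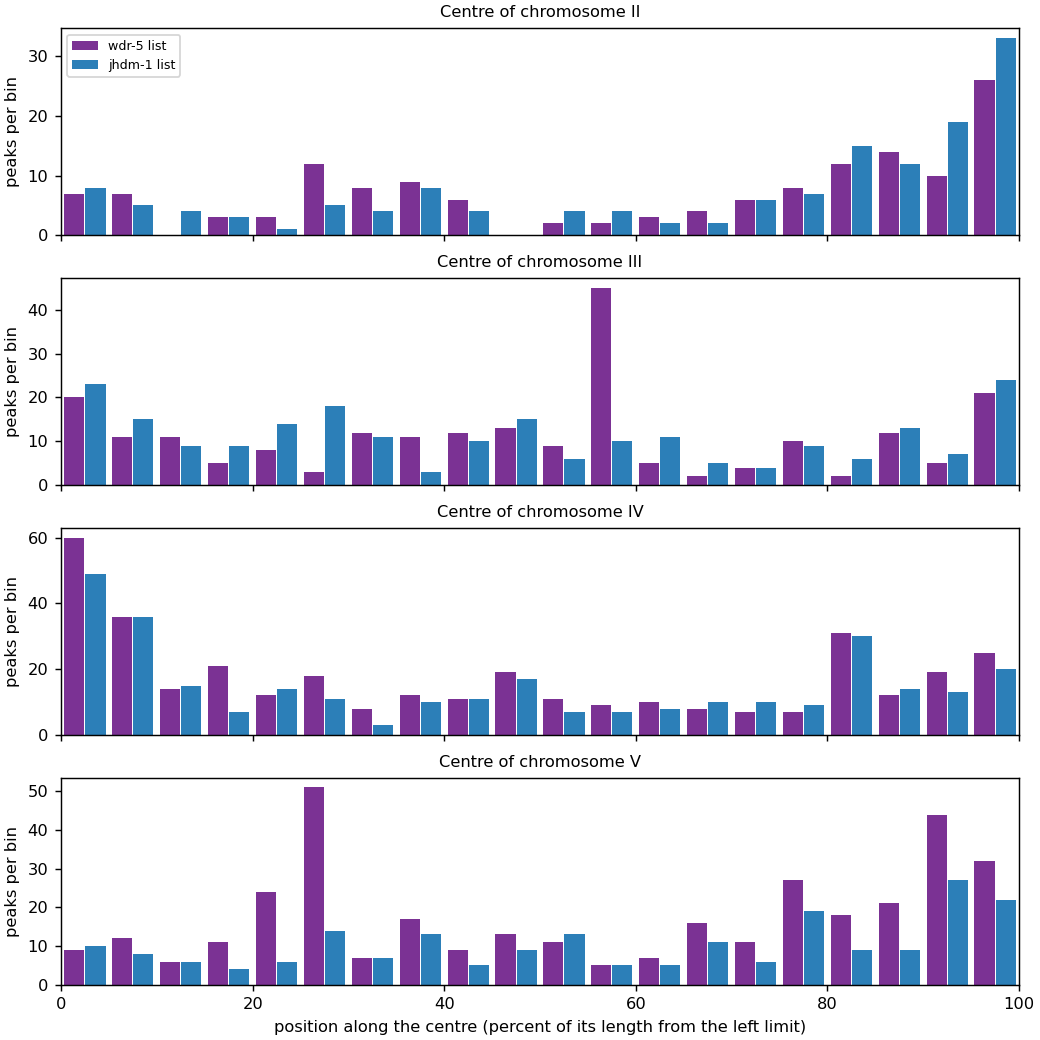
Bars give the number of peaks in each of 20 bins of equal length along the centre of each chromosome, from its left to its right limit (horizontal axis, percent of the length of the centre), for the *wdr-5* and *jhdm-1* lists. Peaks gather at the right end of II and V and the left end of IV. Isolated tall *wdr-5* bars stand at 55% to 60% of III (45 peaks) and at 25% to 30% of V (51 peaks).

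Over the 4 centres together, peaks were denser near the limits than farther in, but not at each limit. Within 1 Mb of a limit lay 35.4% of the central *wdr-5* peaks (95% interval from 32.6% to 38.4%) and, in the *jhdm-1* list, 40.8% (from 37.6% to 44.1%). These strips made up 23.9% of the length. The density was 47.1 *wdr-5* peaks per Mb there and 27.0 farther in. For *jhdm-1* peaks it was 44.8 and 20.4 per Mb.

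The limits were not alike at the left and right ends. On II, 14 *wdr-5* peaks lay within 1 Mb of the left limit and 50 within 1 Mb of the right limit, with 17 and 61 in the *jhdm-1* list. On V the same counts were 19 and 68 in the *wdr-5* list and 18 and 44 in the *jhdm-1* list. Chromosome IV had the opposite order, with 100 *wdr-5* peaks on the left and 46 on the right, and 88 and 39 *jhdm-1* peaks. On III the ends were nearly even, with 42 and 38 *wdr-5* peaks and 47 and 44 *jhdm-1* peaks. The end with more peaks was thus the same in both lists on each chromosome. The sparse left ends of II and V were no denser in *wdr-5* peaks than the middle, which had 15.2 per Mb on II and 30.5 per Mb on V. In the *jhdm-1* list the middle had 13.2 per Mb on II and 16.9 per Mb on V.

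The change in number across the limits differed from limit to limit. Summed over the 8 limits, the *wdr-5* list had 832 peaks from 500 kb to 1 Mb outside, 403 in the 500 kb outside, 224 in the 500 kb inside and 153 in the next 500 kb inside. The *jhdm-1* list had 370, 292, 216 and 142. The left limit of III had one of the steep steps, with 184, 79, 25 and 17 *wdr-5* peaks. Single limits did not all keep the order of the sums. More *wdr-5* peaks lay in the 500 kb inside than in the 500 kb outside at the left limits of II, with 13 inside and 6 outside, and of IV, with 65 and 54. The same held for *jhdm-1* peaks at the left limit of IV, with 55 and 53, and the right limit of II, with 45 and 41. At both limits of V each list had more peaks in the second 500 kb inside than in the first, with 12 and 7 *wdr-5* peaks on the left and 37 and 31 on the right, and 10 and 8, and 26 and 18, *jhdm-1* peaks. At the right limit of IV the *jhdm-1* counts from outside inward were 20, 26, 22 and 17.

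The peaks next to the limits varied in length. The first *wdr-5* peak inside each limit was 181 to 1656 bp long with its midpoint 1.97 to 47.7 kb from the limit, and the first one outside was 118 to 1468 bp long and 2.44 to 178.4 kb away. For the *jhdm-1* list the first peaks inside were 348 to 3048 bp long and 2.62 to 94.0 kb from the limit, and those outside were 233 to 1137 bp long and 5.94 to 63.6 kb away. The closest pair flanked the right limit of V in the *wdr-5* list, with a peak of 1656 bp from 16547202 to 16548857 inside and a peak of 1468 bp from 16551711 to 16553178 outside.

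Some bins of II, IV and V held many peaks of both lists, at the ends of the centre or farther in. Each centre also had stretches without a peak of either list. On IV the first 5% of the centre held 60 *wdr-5* and 49 *jhdm-1* peaks, and the bin from 80% to 85% held 31 and 30. On V the bin from 90% to 95% held 44 and 27. On II the last 5% held 26 *wdr-5* peaks, or 18.3% of the centre, and 33 *jhdm-1* peaks, or 22.6%. Neither list had a peak between 45% and 50% of that centre.

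The longest stretch without a peak of either list was 420.4 kb on II, from 8036258 to 8456608. On V it was 302.7 kb, from 12653222 to 12955947, on IV 154.7 kb, from 8668260 to 8822997, and on III 136.4 kb, from 6304163 to 6440533. Empty stretches of more than 100 kb made up 43.6% of the centre of II, 29.7% of V, 11.4% of IV and 9.37% of III. Wide empty parts thus took the largest share of the centre of II and the smallest of III. Taken list by list, the longest empty stretch of the *wdr-5* list was 532.7 kb, from 7923938 to 8456608 on II, and held 1 *jhdm-1* peak. That of the *jhdm-1* list was 502.5 kb, from 7878315 to 8380778 on V, and held 12 *wdr-5* peaks. In the other centres the longest empty stretches of the *wdr-5* list were 259.4 kb on III, from 4896772 to 5156173, 261.4 kb on IV, from 10724004 to 10985364, and 352.5 kb on V, from 7259930 to 7612452. Those of the *jhdm-1* list were 462.5 kb on II, from 8036258 to 8498802, 287.1 kb on III, from 6153398 to 6440533, and 287.6 kb on IV, from 6824086 to 7111675. Each of these 6 held at least 2 peaks of the other list.

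Most central peaks had company when all peaks were counted, though neither the arms nor random placement was set beside them. A neighbour of the same list lay within 10 kb for 67.4% of the *wdr-5* peaks (95% interval from 64.5% to 70.1%) and, in the *jhdm-1* list, for 59.9% (from 56.6% to 63.1%). The share is sensitive to how close fragments are joined. With peaks within 1 kb merged it was 49.3% in the *wdr-5* list and 56.1% in the *jhdm-1* list, which turns the order of the lists. The median gap between neighbouring central *wdr-5* peaks was 21.6 kb on II, 11.4 kb on III, 9.24 kb on IV and 7.84 kb on V. Between *jhdm-1* peaks it was 18.2, 14.6, 14.4 and 20.2 kb in the same order.

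Groups of 5 or more peaks at such gaps numbered 37 in the *wdr-5* list, with 301 peaks or 28.3% of the central ones, and 26 in the *jhdm-1* list, with 176 peaks or 20.1%. On II the largest *wdr-5* group had 8 peaks, from 11948641 to 11973682, near the right limit, and 5 of them overlapped a *jhdm-1* peak. The largest *jhdm-1* group of II had 6 peaks, from 11690221 to 11713862, and met no *wdr-5* peak. On IV the largest *wdr-5* group had 15 peaks, from 4086971 to 4143761, of which 6 overlapped a *jhdm-1* peak, and the largest *jhdm-1* group had 11 peaks, from 3989611 to 4052016, of which 4 overlapped a *wdr-5* peak. The largest *jhdm-1* group of III had 9 peaks, from 6749071 to 6788499, and 2 of them overlapped a *wdr-5* peak.

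The largest *jhdm-1* group of V also held the longest *jhdm-1* peaks of the centres. Between 8809515 and 8898639 the *jhdm-1* list had 12 peaks that covered 61.1 kb of 89.1 kb, or 68.6%. This was 20.4% of the length of all central *jhdm-1* peaks of V. It held the 2 longest central peaks of that list in any of the 4 chromosomes, 12395 bp from 8832978 to 8845372 and 12400 bp from 8875072 to 8887471. The *wdr-5* list had 43 peaks in the same stretch, 160 to 1444 bp long with a median of 416 bp, which covered 20.1 kb or 22.5%. Of these, 41 lay wholly inside a *jhdm-1* peak. The largest *wdr-5* group of V, 25 peaks from 8867410 to 8898206, was part of it. The long *jhdm-1* peaks of this stretch thus matched rows of short *wdr-5* peaks, with 10 *wdr-5* peaks meeting the peak of 12400 bp and 7 meeting that of 12395 bp.

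The peaks of this stretch came in a repeated order. In the *jhdm-1* list 4 successive peaks of 3469, 3368, 12395 and 3518 bp had counterparts of 3483, 3410, 12400 and 3535 bp that started 42038 to 42095 bp farther to the right. The next peak on each side also started 42103 bp apart but differed in length, with 7808 bp on the left and 4728 bp on the right. In the *wdr-5* list 12 of the 17 peaks of the left-hand part had a peak starting within 100 bp of the median *jhdm-1* offset of 42.1 kb. A run of 4 *wdr-5* peaks of 577, 407, 189 and 562 bp had counterparts of 537, 493, 160 and 558 bp at 42084 to 42135 bp. No other run of 4 successive peaks with starts and lengths matching within 100 bp was found in any of the 4 centres in either list. The sequence of this stretch was not analysed here. An aligner cannot tell reads of near-identical sequences apart, so if the stretch holds such copies the peaks of each part could reflect either.

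**Figure D4:**
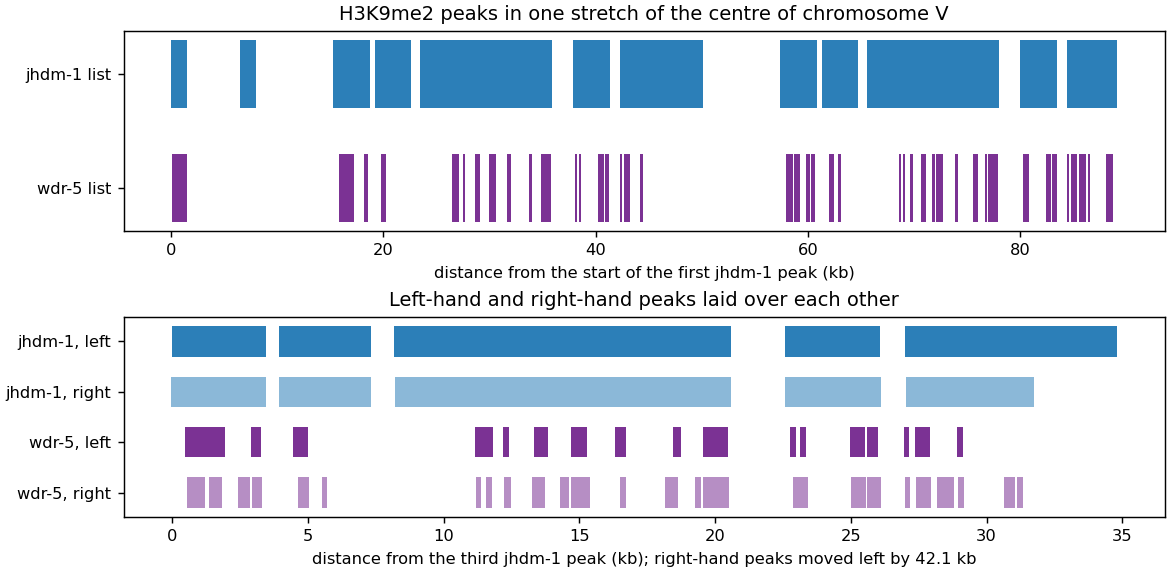
The upper panel maps the 12 *jhdm-1* and 43 *wdr-5* peaks of the stretch of V to scale (kb from the start of the first *jhdm-1* peak). The lower panel lays the right-hand peaks over the left-hand ones after a move of 42.1 kb to the left, and the first 4 *jhdm-1* bars of each row then fall in the same places.

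Without this stretch V kept its order. The remaining 196 central *jhdm-1* peaks of V had a median of 936 bp (from 809 to 1035 bp) and covered 238.1 kb, 1.46 times the length of the remaining 308 *wdr-5* peaks. Over the 4 centres the *jhdm-1* list then covered 2.92% and the *wdr-5* list 1.65%.

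A peak is called shared here when it overlapped a peak of the other list by at least 1 bp. In the centres 498 *wdr-5* peaks, or 46.8%, were shared (95% interval from 43.8% to 49.8%), against 352 *jhdm-1* peaks, or 40.1% (from 36.9% to 43.4%). The arms of the same chromosomes had the opposite order, with 39.5% of the *wdr-5* peaks shared (from 38.3% to 40.7%) against 61.1% in the *jhdm-1* list (from 59.5% to 62.8%). A *jhdm-1* peak was thus shared less often in the centres than on the arms, and the intervals lie far apart. The share a list can reach depends on how much the other list covers, and the *wdr-5* list covered 1.71% of the centres and 15.9% of the arms.

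The lower share of central *jhdm-1* peaks held on each chromosome. It was 36.3% in the centre and 52.8% on the arms of II, 32.9% and 63.1% on III, 40.2% and 61.2% on IV, and 50.5% and 67.3% on V. It also held under each other rule of overlap that was tried, with 11.6% in the centres and 19.4% on the arms when both peaks had to be overlapped over 50% of their length. For the *wdr-5* list the central share was 45.1% on II, 41.2% on III, 49.1% on IV and 48.7% on V. The excess of the *wdr-5* list in the centres did not hold throughout. With peaks within 1 kb merged the share was 44.9% in the centres and 46.7% on the arms, and with a distance of up to 1 kb allowed it was 52.5% and 55.3%. With 50% of both peaks overlapped it was 9.59% and 9.73%. Without the 32 short peaks of III the share there was 48.1% (from 41.1% to 55.2%), and without the stretch of V it was 41.6% on V (from 36.2% to 47.1%).

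**Figure D5:**
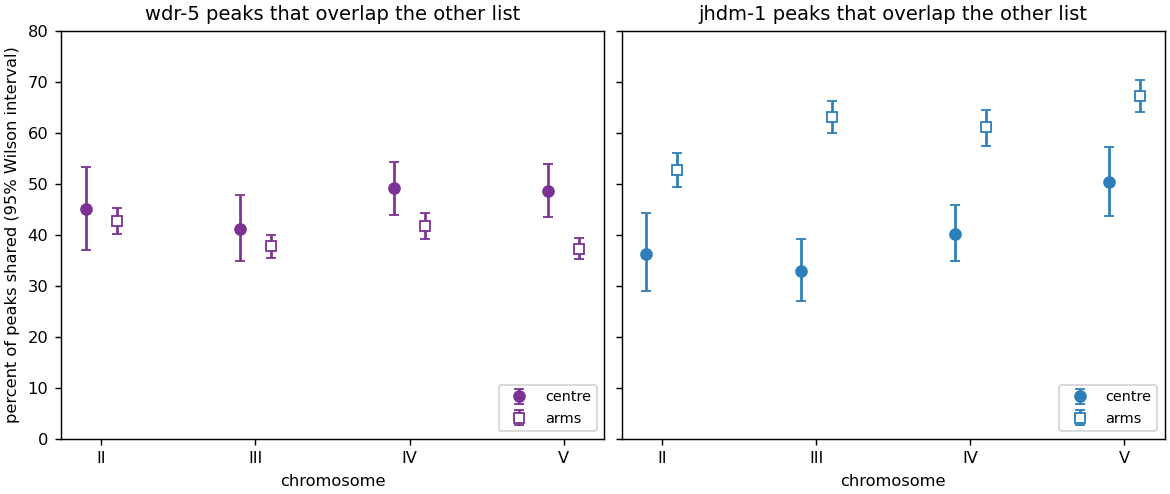
Points give the percent of peaks of each list that overlap a peak of the other list by at least 1 bp, in the centre (filled circles) and on the arms (open squares) of each chromosome, with 95% Wilson intervals. The *jhdm-1* points of the centres, from 32.9% on III to 50.5% on V, all lie below those of the arms.

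Shared peaks were longer than the others in both lists. In the *jhdm-1* list the median was 1136 bp for the 352 shared central peaks (from 1043 to 1308 bp) and 735 bp for the 525 unshared ones (from 699 to 800 bp). In the *wdr-5* list it was 414.5 bp (from 386 to 470 bp) and 353.5 bp (from 336 to 370 bp). The arms showed the same order, with 937 and 669 bp in the *jhdm-1* list and 631 and 477 bp in the *wdr-5* list. A longer peak has more room to meet another, so length and sharing are not independent measures.

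Where single peaks met in the centres, the *jhdm-1* peak was more often the longer. The lists formed 501 overlapping pairs in the centres. In 258 of them neither peak met any further peak, and the longer peak was that of the *jhdm-1* list in 191, or 74.0% (from 68.4% to 79.0%), with medians of 979.5 and 458.5 bp. On the arms it was so in 46.0% of 1385 such pairs (from 43.4% to 48.6%), with medians of 822 and 800 bp. In the centres the *wdr-5* peak lay wholly inside the *jhdm-1* peak in 127 of the 258 pairs, or 49.2%, and the reverse held in 40, or 15.5%. This was not counted on the arms. By length, 242.8 kb lay under peaks of both lists, which was 42.4% of the central *wdr-5* length and 23.4% of the central *jhdm-1* length.

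Pairs in which each peak overlapped at least 50% of the other numbered 102, with 17 on II, 19 on III, 34 on IV and 32 on V. They made up 9.59% of the central *wdr-5* peaks and 11.6% of the central *jhdm-1* peaks. Their ends differed by 121 bp at the median, and in 35 pairs both peaks were at least 1 kb long.

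The longest match lay on III. A *jhdm-1* peak of 10342 bp from 6566528 to 6576869 and a *wdr-5* peak of 9142 bp from 6565907 to 6575048 had 8521 bp in common. Each was the longest central peak of its list on that chromosome, and this was the only close pair in which both exceeded 5 kb. Next came a pair on III, 3023 bp from 4254152 to 4257174 in the *jhdm-1* list and 3120 bp from 4254035 to 4257154 in the *wdr-5* list, with 3003 bp in common. The following pair lay on IV, 2562 bp from 11033613 to 11036174 in the *jhdm-1* list and 2621 bp from 11033534 to 11036154 in the *wdr-5* list, with 2542 bp in common. In the latter pairs the ends of the peaks nearly coincided.

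Most other long peaks met the other list over a smaller part or not at all. The other *wdr-5* peak of over 5 kb, 6178 bp from 14838884 to 14845061 on V, met no *jhdm-1* peak, and the nearest lay 5555 bp away. The second longest *wdr-5* peak of V, 3211 bp from 8576551 to 8579761, was 30571 bp from the nearest *jhdm-1* peak. On III the second longest *wdr-5* peak, 3603 bp from 7708743 to 7712345, overlapped a *jhdm-1* peak over 524 bp. The longest *wdr-5* peaks of II, 4187 bp from 5073322 to 5077508 and 2105 bp from 10831990 to 10834094, were overlapped over 32.4% and 67.5% of their length, and the latter belonged to a close pair by the rule of 50% of both. On IV the longest, 3253 bp from 10261682 to 10264934, was overlapped over 51.1% and also belonged to a close pair. The second, 2955 bp from 4176312 to 4179266, lay 804 bp from a *jhdm-1* peak.

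Among the *jhdm-1* peaks, 3 of the 12 of at least 5 kb met no *wdr-5* peak. They were 5719 bp from 6392732 to 6398450, 5195 bp from 6402053 to 6407247, and 6538 bp from 14048140 to 14054677, all on V. On IV the longest *jhdm-1* peaks, 6907 bp from 6343673 to 6350579 and 6709 bp from 4181400 to 4188108, each met 4 *wdr-5* peaks, which overlapped 28.0% and 37.6% of them. On II the longest were 4137 bp from 6081577 to 6085713 and 4096 bp from 5346537 to 5350632, overlapped over 9.16% and 25.5%. On III the second longest, 4595 bp from 9337657 to 9342251, was 65931 bp from the nearest *wdr-5* peak.

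Unshared central peaks lay farther from the other list than unshared arm peaks did. The distance that the density of peaks alone would give was not computed. The median distance to the nearest peak of the other list was 11852 bp for the 566 unshared *wdr-5* peaks (from 10110 to 13994 bp) and 11103 bp for the 525 unshared *jhdm-1* peaks (from 9737 to 13331 bp). On the arms it was 2489 and 2212 bp. More than 10 kb separated 54.2% of the unshared central *wdr-5* peaks and 53.5% of the unshared central *jhdm-1* peaks from the other list, against 11.3% and 13.1% on the arms, where peaks are denser. The lists hold no depth, so whether such a peak was absent from the other experiment or below its detection was not tested.

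Presence of the 2 lists was also compared by windows. Of the 337 windows of 100 kb in the centres, 268 held a *jhdm-1* peak and 283, or 84.0%, a *wdr-5* peak. Among the windows with a *jhdm-1* peak, 89.2% also held a *wdr-5* peak (95% interval from 84.9% to 92.4%), and among the 69 without one 63.8% did. The share was 81.1% on II, 88.7% on III, 93.4% on IV and 90.9% on V, beside 69.4%, 85.1%, 93.4% and 85.0% of all windows that held a *wdr-5* peak. On IV the share was thus the same as in all windows, and on II, III and V it was higher. Windows with a *jhdm-1* peak make up most of all windows, so these shares cannot lie far apart. Of the windows without a *jhdm-1* peak, 36.8% of 19 on II and 40% of 5 on III held a *wdr-5* peak. On IV it was 93.3% of 15 and on V 70% of 30. No test was run on these shares. Only 25 windows were empty in both lists, of which 12 lay on II.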

How the data were processed

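H3K9me2 ChIP-seq of whole *C. elegans* was used as 2 peak lists of 3 columns, positions in base pairs. Per the paper's methods, the authors aligned reads to WS220/ce10 with Bowtie2, called broad peaks with MACS 2.1.1 per replicate, kept those present in at least 2 replicates of a genotype and generation, and deposited their union per experiment, without a score. The methods name 3 replicates of *wdr-5* mutants and 2 of *jhdm-1* mutants, with reads of 2 lengths. Peaks were assigned by midpoint, and positions are printed counted from 1. Overlap meant at least 1 bp. Values were computed with Python 3.11.15, numpy 2.4.6 and scipy 1.17.1, figures with matplotlib 3.10.9. Overlap functions were tested on simulated lists, where all 120 planted shared peaks were found, and counts of shared peaks were checked with bedtools 2.31.1. Shares have 95% Wilson intervals, medians 95% intervals from binomial order statistics. No group, replicate or depth is in the lists, so no test was run. Named peaks are the longest 2 of each list and centre, the largest groups, the longest empty stretches, the peaks at the limits and the 3 longest overlaps. All central peaks of at least 5 kb and the repeated order on V were added after their values had been seen. The rule and the lists were chosen with earlier results of these data known.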

Additional observations from a re-analysis of the deposited data

How the results depend on the processing

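Of 88 alternatives over 17 results, 51 stayed within 1.5 times the count, ratio or cover, or within the 95% interval of the share or median, and 37 moved. Where not stated, the cause was not tested. With limits moved inward by 500 kb the share of the list in the centres was 8.03% (*wdr-5*) and 11.2% (*jhdm-1*), by construction fewer, and the share of *jhdm-1* peaks with a neighbour within 10 kb was 56.1%. With a minimum length of 500 bp, 381 central *wdr-5* peaks were left, 7.36% of that list, medians were 786 bp (*wdr-5*) and 1097 bp (*jhdm-1*), shared peaks made up 50.1% and 24.8%, peaks with a neighbour 55.1% and 53.9%, and windows with both lists 59.4%. With peaks within 1 kb merged, 13.4% of the *wdr-5* list was central, its median was 445 bp, and peaks with a neighbour made up 49.3% (*wdr-5*) and 56.1% (*jhdm-1*). The central share of the *jhdm-1* list was then 15.2%, within its interval. By base pairs 7.04% of the *wdr-5* list was central, and mean lengths were 537.7 bp (*wdr-5*) and 1186 bp (*jhdm-1*). The share of peaks shared, for *wdr-5* and *jhdm-1* in turn, was 41.3% and 18.7% with 50% of the peak overlapped, 9.59% and 11.6% with 50% of both, 52.5% and 44.5% within 1 kb, and 42.4% and 23.4% by base pairs. Neighbours lay within 5 kb for 60.1% and 43.7%, and within 20 kb for 78.9% and 76.3%. Within 500 kb of a limit lay 21.1% and 24.6%, and within 2 Mb 55.3% and 62.9%. With windows of 50 kb the share with both lists was 77.3%, and of 200 kb 96.2%. Leaving out the short *wdr-5* peaks of III or the stretch of V, both chosen after seeing the data, moved none of the 5 pooled results it was tried on, namely number, cover, median, shared and neighbouring peaks. No paired analysis was possible because replicates were merged in each list, which also left none to omit in turn. Depth is unknown, so a peak missing from a list may have been below detection.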
